A study of Mus musculus with 7 samples.

Results

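The genes described here encode the proteins that cut and rejoin DNA in V(D)J recombination. They are the recombinase genes Rag1 and Rag2, the terminal transferase gene Dntt, and the nonhomologous end joining genes Xrcc5, Xrcc6, Prkdc, Dclre1c, Xrcc4, Lig4 and Nhej1. They were taken by symbol from the deposited expression table, and all 10 were found among its 24341 genes. All 10 were above the floor of the table (0.01) in each of the 7 samples, and all passed a filter on low values that kept 10541 genes.

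The samples were splenic B-cell precursor (BCP) cells of Eμ-Ret mice, which are hemizygous for a Ret fusion transgene on a BALB/c background. The IgH enhancer drives the transgene, so its expression is directed to lymphoid cells. Preleukemic samples (n = 4) came from young mice with no signs of illness, and leukemic samples (n = 3) from moribund mice with overt disease. All 7 samples carry the transgene, and by the labels all were sorted by flow cytometry, so neither group is a wild-type reference and age moves with disease state. For its cultures the study mostly used leukemic spleen cells without enrichment. Its RNA-seq methods do not mention sorting, so sorting of the sequenced samples rests on the labels. The purity of each sequenced sample is not given in the sources used here. Nothing in the labels names the individual animals. Values are FPKM (fragments scaled to transcript length and to sequencing depth), which can be compared between genes.

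V(D)J recombination assembles the variable parts of antigen receptor genes. RAG1 and RAG2 together nick and cut the DNA beside paired gene segments, leaving hairpin ends that Artemis (Dclre1c), activated by the DNA-dependent protein kinase, opens. Terminal transferase adds untemplated nucleotides, and the classical end joining proteins hold and ligate the ends. In B-cell precursors the recombinase genes are lineage-restricted, whereas the end joining genes are used by all cells to mend broken chromosomes.

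The 10 genes covered a wide range of levels. Over all 7 samples, mean FPKM was 181 for Dntt, 114 for Rag1, 86.9 for Xrcc6 and 54.5 for Rag2, and these 4 genes were above 83.7% or more of the genes tested. Xrcc5, Xrcc4 and Lig4 lay in the middle of the range, with means of 22.2, 21.1 and 16.5 FPKM. Dclre1c, Prkdc and Nhej1 were the lowest, at 8.23, 7.92 and 4.76 FPKM, and Nhej1 was above 15.7% of the genes tested. In the preleukemic samples the order of means was Dntt, Rag1, Xrcc6, Rag2, Xrcc4, Lig4, Xrcc5, Prkdc, Dclre1c and Nhej1. Of the neighbours in this order, Rag2 and Xrcc4, Xrcc5 and Prkdc, and Dclre1c and Nhej1 had ranges that did not overlap. In the leukemic samples, Xrcc6 came before Rag1, and Xrcc5 came before Xrcc4 and Lig4. The neighbours with separate ranges there were Xrcc5 and Xrcc4, and Xrcc4 and Lig4.

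Between the groups, 1 of the 10 genes (Lig4) was called at an adjusted p under 0.05, against 14.7% of all genes tested (6.26% lower and 8.47% higher). With 1 sample left out, the number called was 2 without leukemic replicate 1 or 2, 3 without leukemic replicate 3, 1 without preleukemic replicate 1 and 0 without preleukemic replicate 2, 3 or 4. The same fits called 13.0%, 15.4% and 13.3% of all genes without leukemic replicates 1 to 3, and 8.84%, 4.2%, 2.57% and 1.41% without preleukemic replicates 1 to 4. Fewer BCP cells in a sample and less RNA of a gene per BCP cell cannot be told apart in bulk RNA. All leukemic samples were below all preleukemic samples for 4 of the 10 (Rag1, Rag2, Xrcc4 and Lig4), against 17.1% of genes tested, and above them for 1 (Nhej1), against 14.9%. The groups thus did not overlap for 5 of the 10, against 32.0% of genes tested in either direction. At an unadjusted p under 0.05, 6 of the 10 were lower and 0 higher, where 17.5% of genes tested were lower and 34.0% differed in either direction (limma). The median log2 difference was -0.49 over the 10 genes and -0.02 over all genes tested. These shares describe the genes and are not a test of the set.

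**Figure D1:**
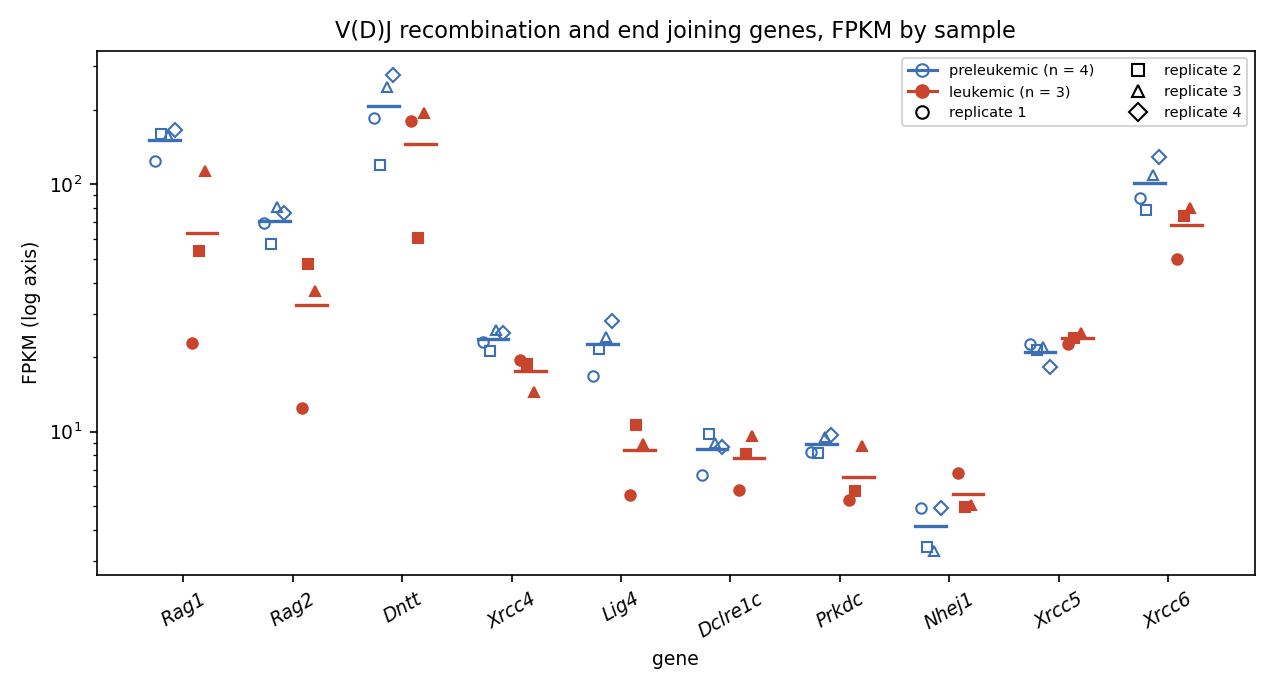
FPKM (log axis) of the 10 genes in each of the 4 preleukemic samples (open blue symbols) and 3 leukemic samples (filled red symbols). Symbol shapes give the replicate number and lines the group means. All leukemic points lie below all preleukemic points for Rag1, Rag2, Xrcc4 and Lig4, and above them for Nhej1.

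Promoter sequence is shown for the recombinase pair and Dntt, the genes with the largest spread among leukemic samples, and for Lig4, the gene called between the groups. The windows are the 250 bases upstream of the RefSeq gene start on GRCm38.p6, printed 5′ to 3′ on the strand of the gene. Capitals mark the E-box core CANNTG, a pattern that reads the same on both strands. Sites bound by E proteins such as Tcf3 share this core, but a match need not be such a site.
Rag1, chr2:101649533-101649782, minus strand: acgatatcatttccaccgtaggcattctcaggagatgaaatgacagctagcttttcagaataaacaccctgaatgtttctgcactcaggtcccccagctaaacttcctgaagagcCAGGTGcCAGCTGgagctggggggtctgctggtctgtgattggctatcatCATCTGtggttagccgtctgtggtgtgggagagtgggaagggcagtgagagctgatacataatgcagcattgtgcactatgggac
Rag2, chr2:101624462-101624711, plus strand: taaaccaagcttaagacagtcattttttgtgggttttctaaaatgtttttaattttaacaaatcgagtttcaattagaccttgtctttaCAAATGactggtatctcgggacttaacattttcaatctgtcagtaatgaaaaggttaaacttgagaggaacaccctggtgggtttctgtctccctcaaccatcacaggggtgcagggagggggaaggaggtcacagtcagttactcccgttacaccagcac
Dntt, chr19:41029025-41029274, plus strand: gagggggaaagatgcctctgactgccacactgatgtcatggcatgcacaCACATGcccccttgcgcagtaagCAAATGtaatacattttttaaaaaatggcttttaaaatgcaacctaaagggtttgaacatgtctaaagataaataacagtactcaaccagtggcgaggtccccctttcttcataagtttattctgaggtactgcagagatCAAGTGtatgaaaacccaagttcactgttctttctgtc
Lig4, chr8:9976312-9976561, minus strand: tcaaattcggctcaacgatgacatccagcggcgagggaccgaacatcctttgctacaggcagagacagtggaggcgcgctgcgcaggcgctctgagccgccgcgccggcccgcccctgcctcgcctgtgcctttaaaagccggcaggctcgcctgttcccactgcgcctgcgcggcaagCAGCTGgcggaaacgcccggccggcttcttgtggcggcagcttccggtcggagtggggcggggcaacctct

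RefSeq windows were matched for 9 of the 10 genes. CpG dinucleotides parted the windows: Rag1 had 3, Rag2 had 3 and Dntt had 2, whereas Lig4 had 28 in the window shown, Xrcc4 had 26 and Xrcc6 had 25. Nhej1, Dclre1c and Xrcc5 lay between, with 9, 8 and 5 CpG. The median over all 32851 windows was 6 CpG, 37.8% of windows had 3 or fewer, and 14.8% had 22 or more. The motif CANNTG occurred 3 times in the Rag1 and Dntt windows and 1 time in those of Rag2 and Lig4. Of all windows, 12.2% held 3 or more matches. At least 1 match was present in 66.2% of all windows, and Xrcc4 had 0. A match is a run of letters and not a measured binding site. RefSeq lists 2 starts for Lig4, and the window shown belongs to the start 12 bases from the edge of the locus in the deposited table.

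Rag1 and Rag2 are neighbours on chromosome 2 that are transcribed towards each other. Rag1 (ENSMUSG00000061311.6) occupies chr2:101638282-101649501 on the minus strand and Rag2 (ENSMUSG00000032864.4) chr2:101624718-101632529 on the plus strand in GENCODE on GRCm38, with 5752 bases between them. The deposited table joins Rag2 in 1 locus with B230118H07Rik, a minus-strand gene whose annotated span covers Rag1, Rag2 and the Rag2 window above. B230118H07Rik averaged 2.05 FPKM in leukemic and 2.54 FPKM in preleukemic samples. The kit keeps strand, but how the counting used strand is not given in the sources used here.

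Rag1 was measured at 22.9, 53.6 and 113 FPKM in leukemic replicates 1 to 3, and at 124, 160, 157 and 165 FPKM in preleukemic replicates 1 to 4. All leukemic samples were below all preleukemic samples, leukemic replicate 1 was far the lowest, and leukemic replicate 3 came close to preleukemic replicate 1. The mean was 63.2 ± 45.9 (SD, n = 3) against 152 ± 18.4 (SD, n = 4) FPKM. On the log2(FPKM + 1) scale the leukemic mean was lower by 1.52, with log2 difference -1.52 ± 0.46 (SE) and a 95% interval from -2.60 to -0.44. After adjustment over all genes this did not pass 0.05 (limma, adjusted p = 0.0668). An exact permutation test (35 labelings of the samples, two-sided) gave p = 0.0286, the smallest value that groups of 3 and 4 samples can give. Without leukemic replicate 3 the difference was -2.07 and passed (limma, adjusted p = 0.0261), and without leukemic replicate 1 it was -0.94 and did not (limma, adjusted p = 0.0743).

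Rag2 was measured at 12.5, 47.6 and 37.0 FPKM in the leukemic samples and at 69.9, 57.4, 80.6 and 76.7 FPKM in the preleukemic samples. The groups did not overlap, and leukemic replicate 1 was again the lowest sample. The log2 difference was -1.29 ± 0.41 (SE, 95% interval -2.25 to -0.34) and did not pass after adjustment (limma, adjusted p = 0.0727, exact permutation p = 0.0286). It passed without leukemic replicate 1, at -0.74 (limma, adjusted p = 0.0331), and without leukemic replicate 2, at -1.66 (limma, adjusted p = 0.037).

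The ratio of Rag1 to Rag2 was examined because both proteins are needed for cutting. Ratios here and below are of FPKM + 1. The ratio was 1.77, 1.12 and 3.01 in the leukemic samples and 1.77, 2.75, 1.93 and 2.14 in the preleukemic samples. Leukemic replicates 2 and 3 held the lowest and the highest ratio of all 7 samples. The mean log2 ratio was 0.86 ± 0.71 (SD) over the 3 leukemic and 1.08 ± 0.28 (SD) over the 4 preleukemic samples. The difference of -0.22 was within the spread (exact permutation test, two-sided, p = 0.6286). Without leukemic replicate 2 this difference was 0.12.

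Dntt encodes terminal transferase and was measured at 181, 60.5 and 194 FPKM in the leukemic samples and at 185, 119, 247 and 277 FPKM in the preleukemic samples. The groups overlapped, and the low leukemic sample was replicate 2 rather than replicate 1, in which Rag1 and Rag2 were lowest. The log2 difference of -0.61 ± 0.46 (SE) had a 95% interval from -1.68 to 0.46 (limma, adjusted p = 0.37). Without leukemic replicate 2 it was -0.08.

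The spread between leukemic samples was large for all 3 of these genes. The SD of log2(FPKM + 1) among leukemic samples was 1.13 for Rag1, 0.98 for Rag2 and 0.93 for Dntt, each above the SD of 94.4% or more of the genes tested. Among preleukemic samples the same SD was 0.19 for Rag1 and 0.21 for Rag2, above that of 71.4% and 77.8% of the genes tested. For Dntt it was 0.54, above that of 96.7%, so the spread of Dntt was large in both groups. The highest leukemic Rag1 value was 4.95 times the lowest, whereas the preleukemic values spanned 1.33 times. For 8 of the 10 genes the SD was larger in the leukemic group, as it was for 73.8% of the genes tested. Leukemic replicate 1 was the lowest leukemic sample for 7 of the 10 genes. The share of all genes tested for which this sample was lowest was not taken. Whether the count is particular to these genes is therefore not known.

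**Figure D2:**
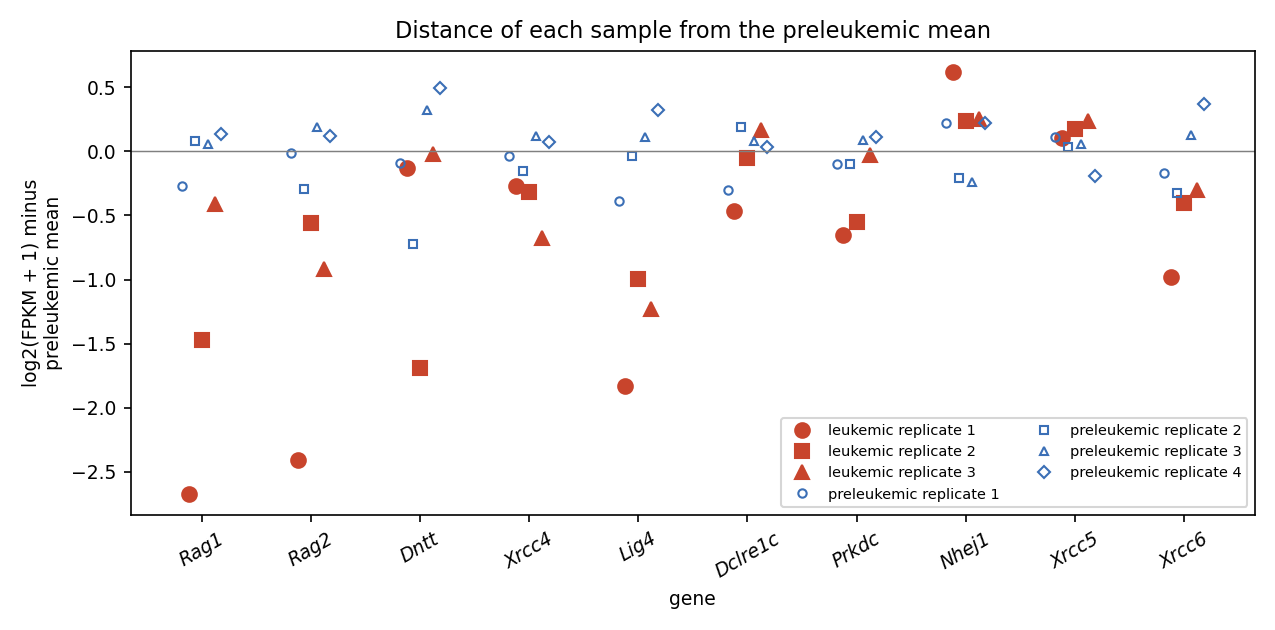
Distance of each sample from the preleukemic mean of the same gene, in log2(FPKM + 1), for the 10 genes. Leukemic replicate 1 (red circles) lies lowest for Rag1, Rag2 and Lig4, and leukemic replicate 2 (red squares) lies lowest for Dntt.

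DNA ends are first bound by the Ku heterodimer, made of Ku80 (Xrcc5) and Ku70 (Xrcc6). Xrcc5 was among the most even of the genes, at 22.6, 23.9 and 24.9 FPKM in leukemic and 22.7, 21.4, 21.9 and 18.2 FPKM in preleukemic samples. Its log2 difference was 0.17 ± 0.10 (SE, 95% interval -0.05 to 0.40, limma, adjusted p = 0.24), and 0.11 without preleukemic replicate 4. Xrcc6 was measured at 49.8, 74.6 and 80.1 FPKM in leukemic and at 88.0, 78.9, 109 and 128 FPKM in preleukemic samples. Leukemic replicate 3 lay just above preleukemic replicate 2, so the Xrcc6 ranges touched. The log2 difference of Xrcc6 was -0.56 ± 0.22 (SE, 95% interval -1.07 to -0.06, limma, adjusted p = 0.116), and -0.36 without leukemic replicate 1. The partners leaned in opposite directions: the ratio of Xrcc5 to Xrcc6 was 0.465, 0.329 and 0.32 in leukemic samples and 0.266, 0.281, 0.209 and 0.148 in preleukemic samples. All leukemic ratios were above all preleukemic ratios, with a mean log2 difference of 0.74 (exact permutation test, two-sided, p = 0.0571).

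Prkdc, the catalytic subunit of the DNA-dependent protein kinase, was measured at 5.29, 5.74 and 8.71 FPKM in leukemic and at 8.25, 8.22, 9.54 and 9.66 FPKM in preleukemic samples. Leukemic replicate 3 lay within the preleukemic range and the other leukemic samples below it. The log2 difference was -0.41 ± 0.16 (SE, 95% interval -0.79 to -0.03, limma, adjusted p = 0.125). Without leukemic replicate 3 it was -0.60 and passed (limma, adjusted p = 0.0327). Dclre1c, which encodes the nuclease Artemis, ranged from 5.83 to 9.58 FPKM in leukemic and from 6.65 to 9.79 FPKM in preleukemic samples, ranges that overlapped almost wholly. Its log2 difference was -0.12 ± 0.18 (SE, 95% interval -0.54 to 0.31, limma, adjusted p = 0.672), and 0.06 without leukemic replicate 1. The table joins Dclre1c in 1 locus with Suv39h2, which was at 4.38 and 3.66 FPKM in leukemic and preleukemic samples.

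The ligation complex held the gene that passed the test. Lig4, the DNA ligase dedicated to end joining, was measured at 5.54, 10.7 and 8.93 FPKM in leukemic samples and at 16.7, 21.6, 24.1 and 28.0 FPKM in preleukemic samples. The highest leukemic value was well below the lowest preleukemic value. Lig4 fell by 1.35 on the log2 scale, with a log2 difference of -1.35 ± 0.23 (SE, 95% interval -1.90 to -0.80, limma, adjusted p = 0.0167, exact permutation p = 0.0286). The preleukemic mean was 2.70 times the leukemic mean. The call was lost by a small margin when preleukemic replicate 2, 3 or 4 was left out, with log2 differences of -1.36, -1.31 and -1.24 (limma, adjusted p = 0.0503, 0.0553 and 0.0623). It was also lost without the filter on low values (limma, adjusted p = 0.0584).

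Xrcc4, the partner that stabilises DNA ligase IV, was measured at 19.5, 18.8 and 14.4 FPKM in leukemic and at 23.1, 21.2, 25.8 and 24.9 FPKM in preleukemic samples, again without overlap. The log2 difference was -0.42 ± 0.12 (SE, 95% interval -0.71 to -0.13) and did not pass (limma, adjusted p = 0.0603, exact permutation p = 0.0286). The ratio of Xrcc4 to Lig4 was 3.13, 1.70 and 1.55 in leukemic samples and 1.36, 0.983, 1.07 and 0.894 in preleukemic samples. Every leukemic ratio was above every preleukemic ratio, with a log2 difference of 0.93 (exact permutation test, two-sided, p = 0.0286), which did not pass 0.05 when adjusted over the 6 ratios examined (p = 0.0857). With any 1 sample left out the difference ran from 0.61 (without leukemic replicate 1) to 1.12, and the exact test can then no longer reach 0.05.

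Nhej1, which encodes the ligation factor XLF, was the gene with the lowest level and the largest difference in the opposite direction. It was measured at 6.78, 4.97 and 5.03 FPKM in leukemic and at 4.92, 3.40, 3.29 and 4.91 FPKM in preleukemic samples. The ranges did not overlap, but leukemic replicate 2 and preleukemic replicates 1 and 4 were nearly equal. The log2 difference was 0.37 ± 0.18 (SE, 95% interval -0.05 to 0.79, limma, adjusted p = 0.19, exact permutation p = 0.1429), and 0.24 without leukemic replicate 1. Exact permutation p was 0.0857 for Xrcc5, Xrcc6 and Prkdc, 0.3714 for Dntt and 0.5714 for Dclre1c. None of the exact p-values of the 10 genes was adjusted.

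Markers of other cells moved with the groups. The summed FPKM of red cell precursor markers was 4637 to 22880 in leukemic and 167 to 2159 in preleukemic samples, and all 8 genes of that list were called higher (limma). Macrophage markers summed to 154 to 326 against 34.99 to 85.4 FPKM, with 6 of 9 called higher, and neutrophil markers to 1392 to 1720 against 146 to 846 FPKM, with 3 of 7 called higher. Platelet markers summed to 12.3 to 49.9 against 0.328 to 2.81 FPKM, with 4 of 4 called higher. T and NK cell markers summed to 10.4 to 29.3 against 6.94 to 13.4 FPKM, with 0 of 5 tested called, and Ptcra of that list was at the floor in all samples. Markers of later B-cell stages summed to 99.5 to 236 against 122 to 201 FPKM (0 of 6 called), plasma cell markers to 365 to 893 against 709 to 937 FPKM (1 of 3 called higher), and cycling cell markers to 891 to 1416 against 592 to 1005 FPKM (1 of 7 called higher). Most of the plasma cell sum was Mzb1, at 277 to 778 against 686 to 916 FPKM. The plasma cell gene called higher was Jchain, at 81.5 to 143 against 18.6 to 22.2 FPKM (limma, adjusted p = 0.00426). B-cell precursor markers summed to 3165 to 5086 in leukemic and 5940 to 7384 FPKM in preleukemic samples, with 2 of 10 called lower (Vpreb1 and Igll1). The part of these other cells in the differences of Rag1, Rag2, Lig4 and the other genes was not tested beyond the scaling given next.

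Rag1, Rag2 and Dntt were also set against the mean of Cd79a and Cd79b, which encode the signaling chains of the B-cell receptor, a reference chosen after seeing the data. The mean log2(FPKM + 1) of these reference genes was 9.36 to 9.74 in leukemic and 9.86 to 10.3 in preleukemic samples. Neither passed the test between the groups, with log2 differences of -0.48 for Cd79a (limma, adjusted p = 0.0567) and -0.44 for Cd79b (limma, adjusted p = 0.114), and fewer BCP cells and less RNA of these genes per cell cannot be told apart here either. Rag2 relative to this mean was -5.60, -4.12 and -4.49 on the log2 scale in leukemic samples and -4.02 to -3.77 in preleukemic samples, without overlap and with a difference of -0.83 (exact permutation p = 0.0286), or -0.40 without leukemic replicate 1. Rag1 relative to the same mean was -4.78, -3.95 and -2.90 in leukemic samples and -2.94 to -2.53 in preleukemic samples. Leukemic replicate 3 was thus within the preleukemic range of relative Rag1, and the difference was -1.05 (exact permutation p = 0.1143), or -0.60 without leukemic replicate 1. Relative Dntt was -1.86, -3.78 and -2.13 in leukemic and -2.95 to -2.18 in preleukemic samples, so leukemic replicates 1 and 3 were above all preleukemic samples and replicate 2 below them. Its difference was -0.15 (exact permutation p = 0.8286), and 0.44 without leukemic replicate 2. Adjusted over the 6 ratios, the smallest p was 0.0857, so no ratio passed 0.05.

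When all genes were scaled to Cd79a and Cd79b, the median log2 difference of all genes tested rose to 0.44 and 4 of the 10 genes were called, against 26.3% of all genes tested (25.3% higher and 1.03% lower). Lig4 (-0.89, limma, adjusted p = 0.00912) and Rag1 (-1.05, limma, adjusted p = 0.0434) were lower, and Nhej1 (0.83, limma, adjusted p = 0.0448) and Xrcc5 (0.63, limma, adjusted p = 0.0451) were higher. Rag2 was at -0.83 (limma, adjusted p = 0.055). Xrcc4, Prkdc and Dclre1c, which were below 0 as deposited, came to 0.04, 0.05 and 0.34. The scaling added the same amount to the log2 difference of every gene, so these signs follow from it. Less the median of all genes, the scaled differences were -1.50 for Rag1, -1.28 for Rag2, -0.60 for Dntt, -0.41 for Xrcc4, -1.33 for Lig4, -0.10 for Dclre1c, -0.39 for Prkdc, 0.39 for Nhej1, 0.19 for Xrcc5 and -0.55 for Xrcc6. Because the shift is shared, these values equal the deposited differences less their own median and are not a separate result.

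**Figure D3:**
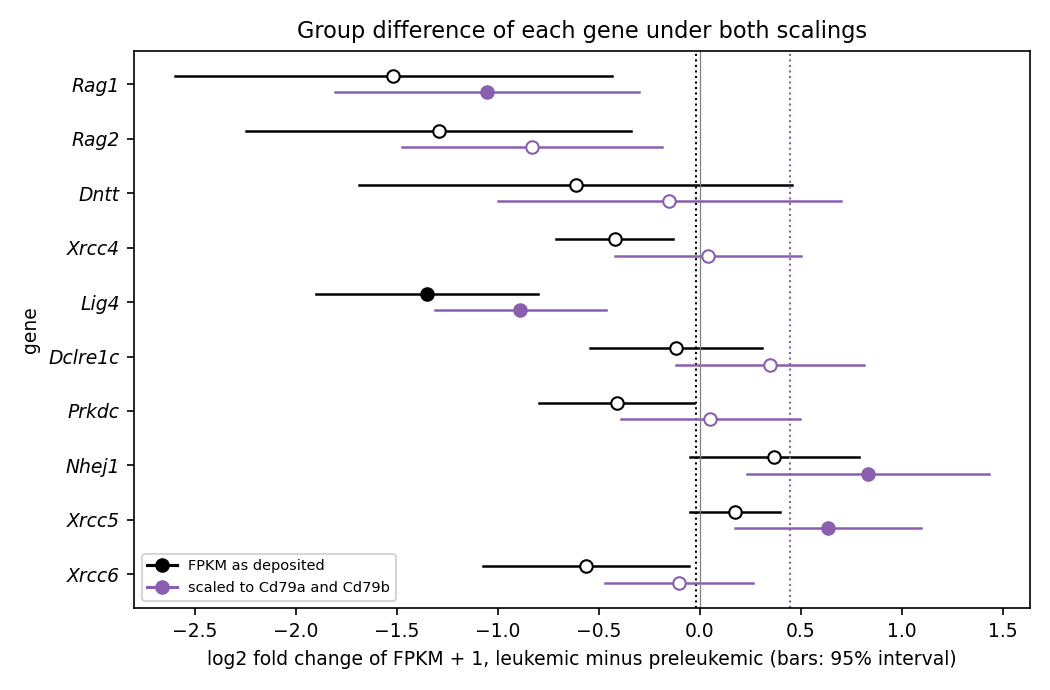
Log2 difference of each gene, leukemic minus preleukemic, with its 95% interval (bars), from FPKM as deposited (black) and after scaling to Cd79a and Cd79b (purple). Filled circles passed an adjusted p of 0.05 (limma), and dotted lines mark the median of all genes tested under each scaling. Lig4 is called under both, and the end joining genes other than Lig4 lie above 0 after scaling, except Xrcc6.

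The genes that work beside these proteins were described from 6 lists, of which 57 of 65 genes were found in the table and tested. Of these, 14 (24.6%) were called, against 14.7% of all genes tested. The lists were written with earlier results of these data known. They hold genes that the study had reported as lower in leukemia (Pax5, Ebf1, Tcf3, Igll1 and Vpreb1). The higher share is thus partly built in and is not a test of the lists. Of 7 RAG cofactors and genes for RAG2 turnover, 0 were called by limma (0 also at an unadjusted p under 0.05), with a median log2 difference of 0.09. The highest of these was Hmgb2, a DNA-bending cofactor of the recombinase, at 304, 248 and 148 FPKM in leukemic and 131 to 207 FPKM in preleukemic samples. Of 7 end processing and accessory genes, 1 was called: Aplf, a scaffold for end joining factors, rose by 0.53 ± 0.13 (SE, limma, adjusted p = 0.0395), from 3.49 to 4.69 FPKM in preleukemic to 5.82 to 7.16 FPKM in leukemic samples. The call of Aplf was lost with any 1 sample left out (limma, adjusted p 0.0512 to 0.115) and without the filter on low values (limma, adjusted p = 0.0862).

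In the break response list, 4 of 13 genes were called, in both directions. Trp53bp1, which encodes the end-protecting protein 53BP1, fell by 0.57 on the log2 scale (limma, adjusted p = 0.0168), from 13.2 to 15.3 FPKM in preleukemic to 8.08 to 10.2 FPKM in leukemic samples. Shld2, listed under its older symbol Fam35a and encoding a subunit of shieldin, which acts downstream of 53BP1, fell by 0.45 (limma, adjusted p = 0.0248). Rnf8, a ubiquitin ligase recruited to breaks, rose by 0.52 (limma, adjusted p = 0.02), and Nbn, a subunit of the MRN complex, rose by 0.68 (limma, adjusted p = 0.0396). With 1 sample left out, the call held in 4 fits each for Trp53bp1, Shld2 and Rnf8, and in 1 for Nbn. Nbn also lost its call without the filter on low values (limma, adjusted p = 0.109). Scaled to Cd79a and Cd79b, Rnf8 (0.98) and Nbn (1.14) were called, and Trp53bp1 (-0.11) and Shld2 (0.02) were not (limma). H2ax (listed as H2afx), the histone variant phosphorylated at breaks and the highest of the list, was at 469, 302 and 198 FPKM in leukemic and 156 to 254 FPKM in preleukemic samples. Of 8 genes of alternative end joining, which joins ends without Ku and DNA ligase IV, 0 were called by limma (3 at an unadjusted p under 0.05), with a median log2 difference of 0.15. Parp1, the highest of them, differed by 0.13 ± 0.18 (SE).

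Of the regulators tied to Rag expression or to antigen receptor loci, 7 of 19 were called. The 6 lower genes were Tcf3, Ebf1, Pax5, Foxo1, Runx1 and Myb, and their log2 differences ran from -0.95 for Foxo1 to -0.46 for Myb. Foxo1, which encodes a direct activator of Rag transcription, was at 57.2, 104 and 98.6 FPKM in leukemic and 144 to 179 FPKM in preleukemic samples (limma, adjusted p = 0.0277). Ebf1, a B-lineage specification factor, fell by 0.70 (limma, adjusted p = 0.00952), and Tcf3, the gene of E2A, fell by 0.67 (limma, adjusted p = 0.0369). Pax5 fell by 0.78 (limma, adjusted p = 0.0134), Runx1 by 0.61 (limma, adjusted p = 0.0167) and Myb by 0.46 (limma, adjusted p = 0.0412). Of the 7 fits with 1 sample left out, the call held in 7 for Ebf1, 5 each for Pax5 and Runx1, 4 for Foxo1, 3 for Tcf3 and 1 for Myb. Gfi1b, a repressor of Rag transcription that red cell and platelet precursors also express, was the 1 gene called higher, at 7.88, 18.6 and 12.9 FPKM in leukemic and 4.02, 0.36, 0.79 and 0.482 FPKM in preleukemic samples (log2 difference 2.70, limma, adjusted p = 0.0175). Scaled to Cd79a and Cd79b, the 6 lower genes came to between -0.49 (Foxo1) and 0 (Myb) and none was called (limma). Less the median of all genes they were at -0.94 to -0.44, which the shared shift cannot change. The group difference of Gfi1b moved with the red cell and platelet marker sums given above, whose part was not tested.

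Of the antigen receptor chain list, 3 surrogate light chain genes were tested and 2 were called. Igll1 fell by 1.32 (limma, adjusted p = 0.0244) and Vpreb1 by 1.50 (limma, adjusted p = 0.0226). Vpreb2, a near-identical copy of Vpreb1, was at 16.9, 276 and 25.4 FPKM in leukemic and 278 to 385 FPKM in preleukemic samples and did not pass (limma, adjusted p = 0.0712). Under the scaling to Cd79a and Cd79b, 15 genes of the 6 lists were called, 12 higher and 3 lower, of which 6 were also called as deposited, and Shld2 came to 0.02. The immunoglobulin constant genes of that list were not analysed here. The count of 14 called genes fell to 3 without preleukemic replicate 2 and to 1 without preleukemic replicate 3 or 4, and Ebf1 was the gene called with any of the 7 samples left out.

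**Figure D4:**
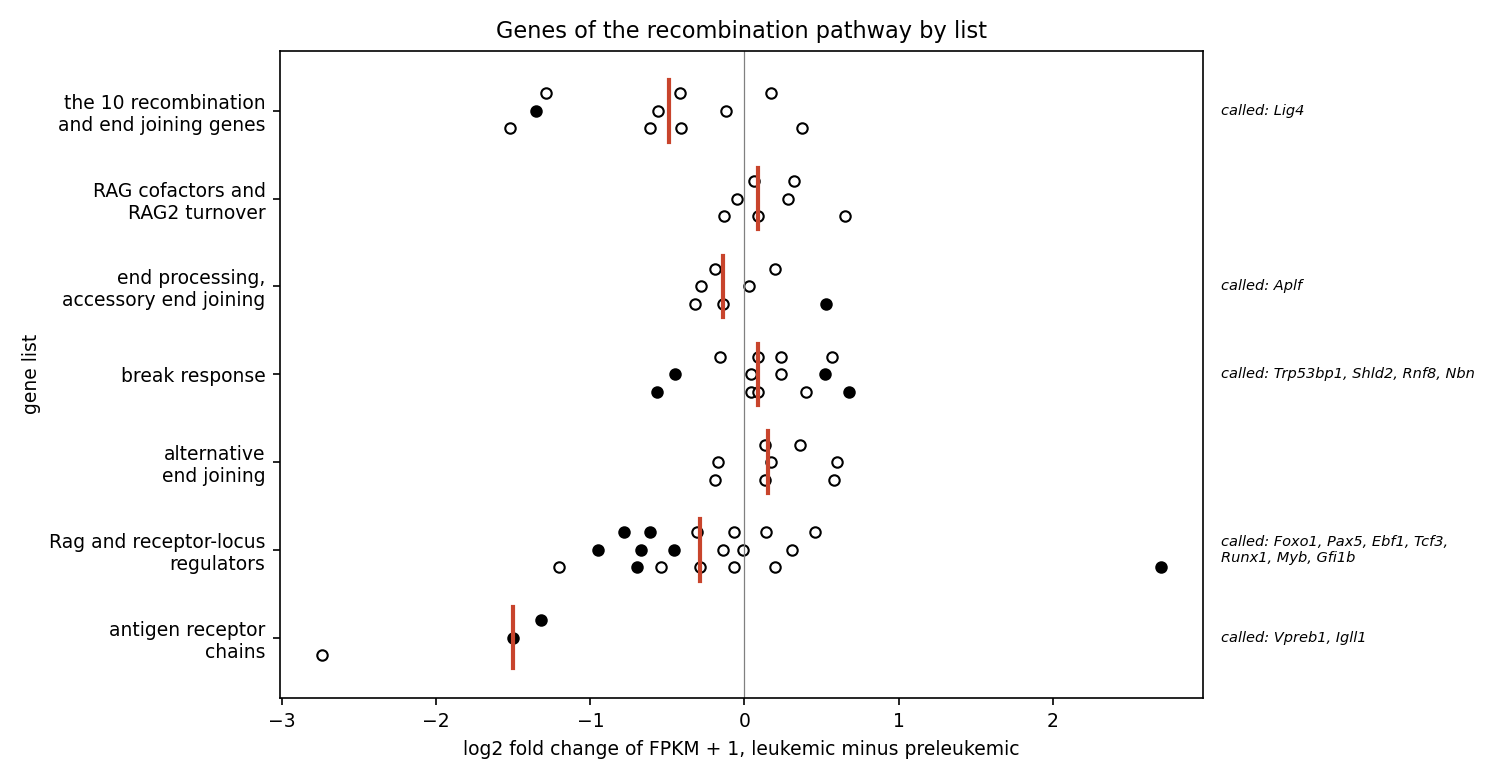
Log2 difference, leukemic minus preleukemic, of the 10 recombination and end joining genes and of the genes of 6 related lists (1 point per gene, filled where the adjusted p from limma was under 0.05 and named at the right). Red lines are list medians, which run from -1.50 for the antigen receptor chains to 0.15 for alternative end joining.

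Profiles across the 7 samples were compared over 8775 genes with a mean of at least 5 FPKM, as a description. Likeness was the root mean square difference of centred log2(FPKM + 1) values. The genes nearest to Rag1 were Cry1, Drc7 and Klhl22, at 0.18, 0.19 and 0.27. Those nearest to Rag2 were Glipr1, Selplg and Slamf1, at 0.11, 0.11 and 0.15. Rag2 ranked 39 and Lig4 ranked 67 by likeness to Rag1, while Lig4 ranked 78 and Rag1 ranked 174 by likeness to Rag2. The genes nearest to Dntt were Tnfrsf18, Bach2 and Cpm, at 0.24, 0.24 and 0.29, and Rag1 and Rag2 ranked 8054 and 8150 by likeness to Dntt. Cry1 illustrates the Rag1 profile, at 0.394, 1.95 and 8.02 FPKM in leukemic and 6.70 to 9.88 FPKM in preleukemic samples. Tnfrsf18 illustrates that of Dntt, at 9.03, 2.23 and 11.0 FPKM in leukemic and 6.21 to 10.3 FPKM in preleukemic samples. Both sets of values repeat the order of the leukemic samples seen for the gene they resemble. This follows from picking them by likeness over the same 7 samples and is not a separate result.

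The listed genes on either side of the Rag pair had smaller differences or were at the floor. Traf6, on the higher coordinate side, was at 17.6, 15.5 and 16.9 FPKM in leukemic and 18.3 to 22.4 FPKM in preleukemic samples, a log2 difference of -0.31 ± 0.10 (SE, limma, adjusted p = 0.0712). Lrrc4c, on the other side, was listed at the floor of 0.01 in 6 of the 7 samples.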

How the data were processed

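RNA-seq libraries were made by the authors with a stranded mRNA kit from 4 preleukemic and 3 leukemic BCP samples. The authors deposited 1 FPKM value per gene and sample, with no value below 0.01, which is fragments already scaled to depth and transcript length. The submitters' processing notes name STAR 2.5.0b, Bowtie, bedtools 2.17.0, Cufflinks 2.2.1, DESeq2 and the mm10 build, without their roles. The study tested counts with DESeq2, but FPKM is not a count, so a log-scale test was used instead.

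The 10541 genes (of 24341) with 10 FPKM or more in total over 7 samples were compared by limma 3.58.1 under R 4.3.3, on log2(FPKM + 1), with an intensity trend and no covariates, and p-values were adjusted by the method of Benjamini and Hochberg over all of them. Genes were called at an adjusted p under 0.05. Fold changes on this scale understate those of low genes. Single values and ratios were compared by exact permutation over samples, and ratios were taken on log2(FPKM + 1). Figures and tables were made with Python 3.11.15, numpy 2.4.6, pandas 2.3.3 and matplotlib 3.10.9. On simulated data for this comparison (10541 genes, 200 changed) the procedure recovered 141 at a log2 change of 1, with 12 false calls, and 188 at a log2 change of 2, with 6. The simulated noise was independent between genes, with 1 SD per gene for both groups. In the data 73.8% of genes tested had a larger SD in the leukemic group, so these figures need not hold there.

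Depth was read from the steps of low values in 2200 genes with a single transcript and was 15.4 to 16.2 M fragments in leukemic and 13.5 to 14.7 M in preleukemic samples. At least 75.9% of low values lay within 0.1 of a whole number of fragments. A transcript of 2000 bases at 5 FPKM then holds 122 fragments in the shallowest sample (counting error 9.06%). No sample pair shared values that point to a repeated library. Where nothing names separate animals, p-values measure the spread between samples, which may be technical.

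The 10 genes, the 6 pathway lists and the 9 marker lists were chosen with earlier results of these data known. Named are all 10 genes, the highest and all called genes of each pathway list, the 3 nearest profiles of Rag1, Rag2 and Dntt, and the listed genes beside the Rag pair; marker lists are given as sums, with Cd79a and Cd79b as a B-lineage reference chosen after seeing the data. Of the genes this rule and the intended reference name, 2 are not reported here. Beyond this rule, Vpreb2, Suv39h2, B230118H07Rik, Ptcra, Mzb1 and Jchain were named after their values were seen. Of the 65 pathway genes, 57 were found in the table, 5 under older symbols. Promoter windows are from RefSeq (GRCm38.p6) and gene spans from GENCODE. Alternatives were a pseudocount of 0.1, no filter, a stricter filter (70 FPKM in total), quantile and median-of-ratios scaling, limma without a trend, a replicate block, leaving out each sample, and, chosen after seeing the data, scaling to B-lineage genes.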

Additional observations from a re-analysis of the deposited data

Results flagged for a closer look

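Among 33 sets of 4 preleukemic values examined, 2 held a sample far from the others, where chance gives about 1 in 20 such sets. Gfi1b was at 4.02 FPKM in preleukemic replicate 1 and at 0.36, 0.79 and 0.482 FPKM in preleukemic replicates 2 to 4, a gap of 0.883 of the range, above Dixon's critical value for 4 samples. The red cell precursor markers of preleukemic replicate 1 summed to 2159 FPKM, against 167 to 212 FPKM in the other preleukemic samples, and its platelet markers to 2.81 against 0.328 to 1.29 FPKM. In the same sample Rag1, at 124 FPKM, and Lig4, at 16.7 FPKM, were the lowest preleukemic values of these genes without lying apart by the same measure. The part of other cells in these values was not tested. Rag1 relative to the mean of Cd79a and Cd79b was at -2.53 on the log2 scale in preleukemic replicate 2 and between -2.94 and -2.91 in the other preleukemic samples, a gap of 0.927 of the range.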

How the results depend on the processing

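Of 147 values of the 10 genes under alternatives, 131 kept their direction and their side of the threshold. For the 9 genes not called as reported, staying uncalled counts as keeping their side, so this count does not measure firmness. The 5 values that lost a call were all of Lig4. Over all genes, 1553 were called as reported, 706 without a filter, 951 with an FPKM sum of at least 70 (where 7 of the 10 genes were tested), 2777 with B-lineage scaling and 149 to 1620 with 1 sample left out (932, 443, 271 and 149 without preleukemic replicates 1 to 4). Quantile scaling moved the share of calls that were higher from 57.5% to 45.4%, and B-lineage scaling to 96.1%. Of the 10 genes, 1 was called as reported, 0 without a filter, 4 with B-lineage scaling and 0 to 3 with 1 sample left out. Pathway list calls numbered 14 as reported, 6 without a filter, 15 (12 of them higher) with B-lineage scaling and 1 to 13 with 1 sample left out.

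Without a filter Lig4 stayed at -1.35 but did not pass (limma, adjusted p = 0.0584, with adjusted p over its alternatives 0.00912 to 0.137). B-lineage scaling put Rag1 (-1.05), Nhej1 (0.83) and Xrcc5 (0.63) past the threshold and shifted all genes alike, so Xrcc4 (0.04), Dclre1c (0.34) and Prkdc (0.05) came above 0 while staying below the median of all genes (-0.41, -0.10 and -0.39 less it). A shared shift cannot change these distances from the median. With 1 sample left out, log2 differences ran from -2.07 to -0.94 for Rag1, from -1.66 to -0.74 for Rag2, from -1.53 to -1.11 for Lig4, from -0.60 to -0.29 for Prkdc, from -0.26 to 0.06 for Dclre1c and from -0.08 to 0.34 for Parp1. Ratios ran from -0.59 to 0.12 for Rag1 to Rag2, from 0.61 to 1.12 for Xrcc4 to Lig4, and, relative to B-lineage genes, from -1.14 to -0.40 for Rag2 and from -0.52 to 0.44 for Dntt. Fewer samples allow no exact p under 0.05 there. The causes of the other changes were not tested.

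Replicate numbers are shared between the groups, but same-numbered samples did not deviate together (correlations 0.03, 0.05 and -0.09). Differently numbered samples had correlations from -0.11 to 0.11. These values show no sign of pairing by number, but groups of 3 and 4 samples cannot exclude it. With the replicate block, under which preleukemic replicate 4 has no partner, 0 genes were called over all genes, among the 10 genes and in the pathway lists (limma, with 2429 genes at an unadjusted p under 0.05), and Lig4 was at -1.24 (limma, adjusted p = 0.137).

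Depth limits the low genes most: Nhej1, Prkdc and Dclre1c were near 5 to 8 FPKM.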
